A study of Mus musculus with 27 samples.

Results

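Ribosome biogenesis genes encode the nucleolar proteins that transcribe, modify, cut and fold the precursor of ribosomal RNA and assemble it with ribosomal proteins into the small (40S) and large (60S) subunits. RNA polymerase I makes the precursor, small nucleolar ribonucleoproteins (snoRNPs) guide its chemical modification, and successive assembly complexes are built on it and released as the subunits mature. In the intestine the pathway is known to be most active in dividing crypt cells, and many of its genes are targets of the transcription factor Myc. The 35 genes described here were chosen by name for these roles, with earlier results of these data known. All 35 were found once in each of the 3 expression tables, which list 23597 genes for organoids, 27316 for intestine and 27179 for tumours. They lie on 16 chromosomes.

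The series holds 27 RNA-seq libraries in 9 groups of 3, all from mouse, and compares intestinal epithelium with and without Taf4. The Taf4 protein is part of TFIID, a complex that helps RNA polymerase II to assemble at promoters. Intestine was taken from embryos at E17.5 (Embryo WT and Embryo KO), and ileum from adults of 8 weeks (Adult WT and Adult KO), of mixed C57Bl6/129sv background. Per the study's methods, Taf4 lox/lox was recombined by Cre under the villin promoter in embryos and by tamoxifen-inducible VilCreERT2 in adults, so recombination was directed to the epithelium while RNA came from the whole tissue. The labels give sunflower oil as the injection of the WT animals, embryos included, whereas the methods describe tamoxifen for the controls too. Organoids (enteroids, grown from ileal crypts of mice 4 months old) were treated with ethanol according to the labels (control), with 4-hydroxytamoxifen (4-OHT, 1 µM for 3 days) to delete Taf4, or with 4-OHT and 1 µM EPZ6438. EPZ6438 inhibits Ezh2, the histone methyltransferase of Polycomb repressive complex 2. The methods instead describe the organoid controls as Taf4 lox/lox cultures without Cre given 4-OHT. The labels give the 4-OHT dose and time for replicates 2 and 3 of the 4-OHT group but neither for replicate 1. That library was placed in the group by its title, and the group mean includes it. The EPZ6438 organoids were grown for 11 days by their labels and the others were collected after 3 days by the methods, so the drug and the time in culture cannot be told apart. The methods give a later day than the labels for the EPZ6438 organoids. Tumours came from the ileum of mice with the Apc Δ14 allele, with Taf4 intact (Apc) or deleted through VilCreERT2 (Taf4 KO-Apc), after tamoxifen at 6 to 8 weeks of age.

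For organoids and intestine the deposited values used were the authors' means of normalized counts, 1 value per gene and group. They carry no spread, so no difference between those groups could be tested and none is described as a change. A gene was called higher or lower when its group means differed by more than 1.5-fold, on the log2(mean + 1) scale, among genes with a mean of at least 10 in the higher group. The group means summed to between 11937454 and 16193267 normalized counts. The tumour table gives FPKM (fragments per kilobase of transcript, scaled to the depth of the library) for each of the 6 libraries and was tested with limma. The whole-gene Taf4 value did not separate the KO groups from their controls (Taf4a mean 264 in control, 286 in 4-OHT and 201 in EPZ6438 organoids, 226 in Embryo WT and 300 in Embryo KO, 373 in Adult WT and 494 in Adult KO; Taf4 FPKM 10.5 to 11.4 in Apc and 13.0 to 13.9 in Taf4 KO-Apc tumours). It counts reads over the whole gene, so it does not check the deletion of floxed exons. Markers of epithelium were present in every group, and in organoids the summed levels of the endothelial, T cell and B and plasma cell lists were each under 10 normalized counts.

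In organoids, deletion of Taf4 went with lower levels of nearly all ribosome biogenesis genes. With 4-OHT 33 of the 35 genes had a lower mean than the control and 19 were lower by more than 1.5-fold, against 21.0% of the 13929 genes tested. None was higher by that fold, against 21.1% of genes. The median log2 ratio was -0.68 for the 35 genes and 0.00 for all genes. Bop1 and Nop10 were the exceptions in direction.

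With 4-OHT 6 genes were lower by more than 2-fold, against 11.3% of all genes tested. Of these 6, 3 were the nucleolar chaperones, 1 belonged to the box H/ACA snoRNP and 2 to 60S assembly. Dkc1, the pseudouridine synthase of box H/ACA snoRNPs (mm9 chrX:72341193-72355116), had a mean of 2848 normalized counts in control organoids and 1177 with 4-OHT, a log2 ratio of -1.27. Gnl3 (nucleostemin), a nucleolar GTPase abundant in stem and progenitor cells, went from 1013 in the control to 463. Ncl (nucleolin), a chaperone of the rRNA precursor, stood at 2557 and 1187 in the same order. For these genes the mean with 4-OHT was under the control mean by more than 2-fold. Npm1 (nucleophosmin), the other abundant nucleolar chaperone (mm9 chr11:33052287-33063206), had means of 19144 and 9463, a log2 ratio of -1.02. Nolc1, which binds both kinds of snoRNP, had a log2 ratio of -1.06, so all of the 3 chaperones were lower by more than 2-fold. Rrp1b, a nucleolar protein of large subunit assembly, was the remaining gene past that fold, with a log2 ratio of -1.04.

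The core proteins of box C/D snoRNPs, which guide ribose methylation, were lower to a similar degree. Nop56 and Nop58, the scaffold proteins, had log2 ratios of -0.89 and -0.82, and Fbl (fibrillarin), the methyltransferase, had -0.85. Among box H/ACA proteins Gar1 (log2 ratio -0.93) and Nhp2 (-0.70) followed Dkc1, whereas Nop10 was 888 in the control and 961 with 4-OHT.

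In the RNA polymerase I group Mybbp1a, a nucleolar regulator of RNA polymerase I transcription, had a log2 ratio of -0.96 and Polr1a, the largest catalytic subunit, -0.75, while Polr1c, a subunit shared with RNA polymerase III, had -0.27. In the small subunit processome, which binds the nascent precursor, log2 ratios ran from -0.71 for Wdr43 to -0.29 for Nop14, and 2 of 6 genes passed 1.5-fold. In 40S maturation 1 of 5 genes did, Tsr1 at -0.68, and Ltv1, an export and maturation factor, stood closest to the control at -0.19. Of 10 genes of 60S assembly 5 passed it. Among the 3 proteins of the PeBoW complex, which acts in large subunit maturation, Wdr12 had a log2 ratio of -0.73 and Pes1 of -0.25, and Bop1 was 678 in the control and 775 with 4-OHT (mm9 chr15:76283426-76307699).

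Where EPZ6438 was added to 4-OHT, 21 of the 35 genes were higher by more than 1.5-fold than with 4-OHT alone, against 28.0% of 14109 genes tested, and none was lower, against 28.6%. The median log2 ratio was 0.79 for the 35 genes and 0.01 for all genes. The comparison with 4-OHT shares its 4-OHT group with the one above, so a low 4-OHT mean enters both, and the means of all 3 groups are therefore given side by side.

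All 10 snoRNP core and chaperone genes were higher than with 4-OHT alone by more than 2-fold, against 17.2% of all genes tested. Fbl had means of 1451 in the control, 807 with 4-OHT and 4656 with 4-OHT and EPZ6438, the highest ratio of the 35 genes (5.77-fold over 4-OHT). Gar1 had 1061, 556 and 2745 in the same order. Npm1 had 19144, 9463 and 38285. Of the 3 groups, the EPZ6438 organoids were the highest for each of these genes. Dkc1 had means of 2848, 1177 and 5039, and Ncl of 2557, 1187 and 4279. Nop10, not lower with 4-OHT, was likewise highest with EPZ6438 at 1990.

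Genes of 60S assembly ran from a log2 ratio of -0.51 for Bop1 to 1.56 for Wdr12, so their range overlapped that of the snoRNP and chaperone genes. The medians were 0.48 for RNA polymerase I and 0.36 for 40S maturation, and differences between roles were not tested. Polr1b, the second catalytic subunit, had means of 2162 in the control, 1456 with 4-OHT and 1740 with EPZ6438. Mybbp1a had 8484, 4363 and 5926 in that order. Both stayed under the control in the EPZ6438 group. Rrp9, a protein of the U3 snoRNP, had 1184, 795 and 685, and Ppan, a large subunit assembly factor, had 1521, 891 and 780. These 2 genes and Bop1 were the 3 with a lower mean in EPZ6438 organoids than with 4-OHT alone. Bop1 differed from its PeBoW partners, with 678, 775 and 542, whereas Pes1 had 946, 795 and 1868 and Wdr12 had 884, 534 and 1572.

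Against the control, the EPZ6438 organoids had 11 genes higher (background 23.1% of 14001 genes) and 3 lower (background 23.6%), with a median log2 ratio of 0.31. The 11 comprised 7 of the 10 snoRNP and chaperone genes with Ltv1, Pes1, Wdr12 and Nop16, and the 3 were Ppan (-0.96), Rrp9 (-0.79) and Rrs1 (-0.59). Rrs1, which takes part in incorporating the 5S ribonucleoprotein, lay just past the 1.5-fold limit, as did Ltv1 at 0.60. Mybbp1a (-0.52) lay just short of it. Where group means were scaled to equal totals, the median of all genes moved to -0.21, that of the 35 genes to 0.10, and 9 genes were higher and 4 lower, against 16.5% and 31.7% of genes.

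**Figure D1:**
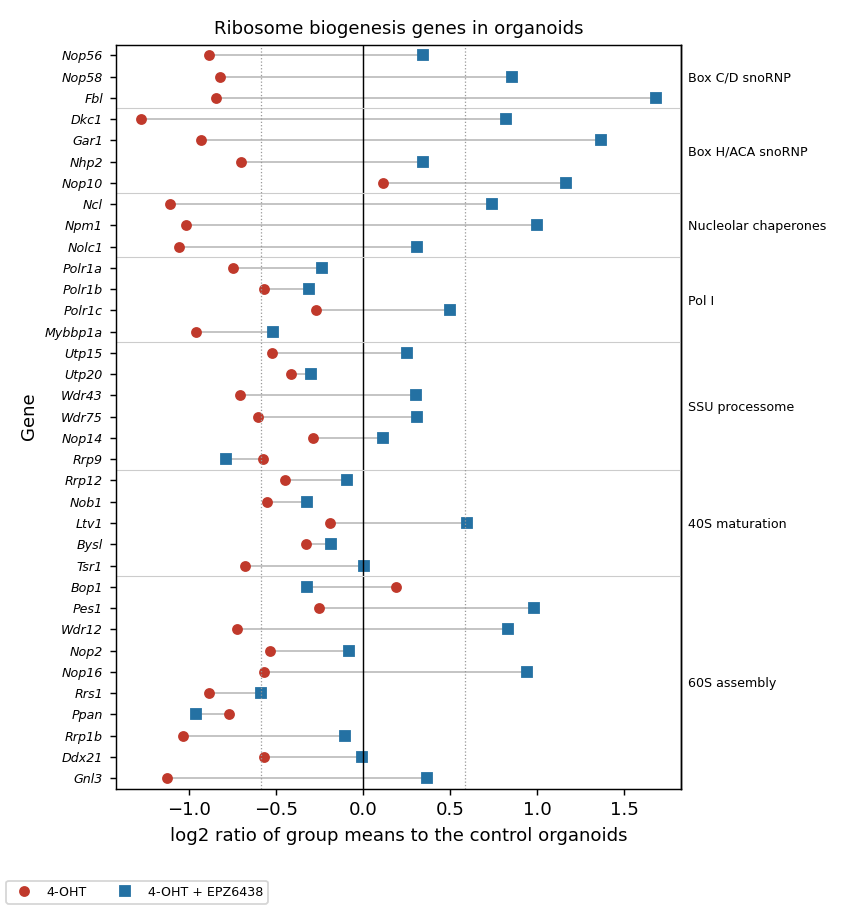
Log2 ratio of each group mean to the control organoid mean for the 35 ribosome biogenesis genes, ordered by role; circles are 4-OHT, squares 4-OHT with EPZ6438, and dotted lines mark 1.5-fold. There is 1 deposited mean per group and no error. With 4-OHT, 33 of 35 circles lie below 0, and the squares of snoRNP and chaperone genes lie above 0 while those of Mybbp1a, Rrp9, Rrs1 and Ppan lie below it.

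Other genes of the pathway are read against the same background of 21.0% of genes lower and 21.1% higher with 4-OHT. Of 43 other processome and 40S genes tested, 10 were lower by more than 1.5-fold and none higher, with a median log2 ratio of -0.34. Of 41 other 60S genes 7 were lower and 1 higher, with a median of -0.39. The share of lower genes in these lists was thus near or under the background. Among 9 snoRNP assembly factors 6 were lower (median -0.71), including Naf1 (234 to 117), Ruvbl1 (500 to 275) and Ruvbl2 (1186 to 595), the last 2 being the ATPases of the R2TP assembly complex. RNA exosome genes, which trim rRNA precursors, were lower in 5 of 13 cases, with Exosc8 and Exosc2 each at a log2 ratio of -1.24. Host genes of snoRNAs, from whose introns snoRNAs are cut, were lower in 5 of 6 cases tested with a median of -1.28, among them Gas5 (5909 to 2880). Ribosomal protein genes were lower in 15 of 50 cases, with a median of -0.45. These lists all had positive medians with EPZ6438 relative to 4-OHT alone. The medians were 0.63 and 0.61 for the processome and 60S lists, 0.82 for snoRNP assembly, 1.93 for snoRNA host genes, 0.96 for the exosome and 0.96 for ribosomal proteins, of which 37 of 50 were higher by more than 1.5-fold.

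Markers of cell state also differed between the organoid groups. All 20 proliferation genes were lower with 4-OHT (median log2 ratio -1.71; Mki67 1667 in the control and 312 with 4-OHT), and 19 of 20 were higher with EPZ6438 than with 4-OHT alone (median 1.68). Against the control, the proliferation list had a median of -0.03 with EPZ6438 and none of its genes was higher. All 8 enterocyte markers were higher with 4-OHT (median 2.94; their summed level was 15460 normalized counts in the control and 104211 with 4-OHT) and lower with EPZ6438 than with 4-OHT alone. Of the crypt base stem cell markers 7 of 8 were lower with 4-OHT. With EPZ6438 4 of the 8 were higher and 1 lower than with 4-OHT alone. Against the control 4 were lower with EPZ6438 and none higher, with a median of -0.71. The Myc network was mixed. With 4-OHT 3 of its 11 genes were higher and 5 lower. With EPZ6438 relative to 4-OHT alone 3 of the 10 tested were higher and 4 lower. Within it Mycl1, a Myc family member, was 1470 in the control, 444 with 4-OHT and 1185 with EPZ6438. Mxd1, a Myc antagonist, had means of 151, 425 and 109. The part of these shifts in the ribosome biogenesis values was not tested. In such bulk samples fewer cells of a type and less RNA per cell cannot be told apart.

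**Figure D2:**
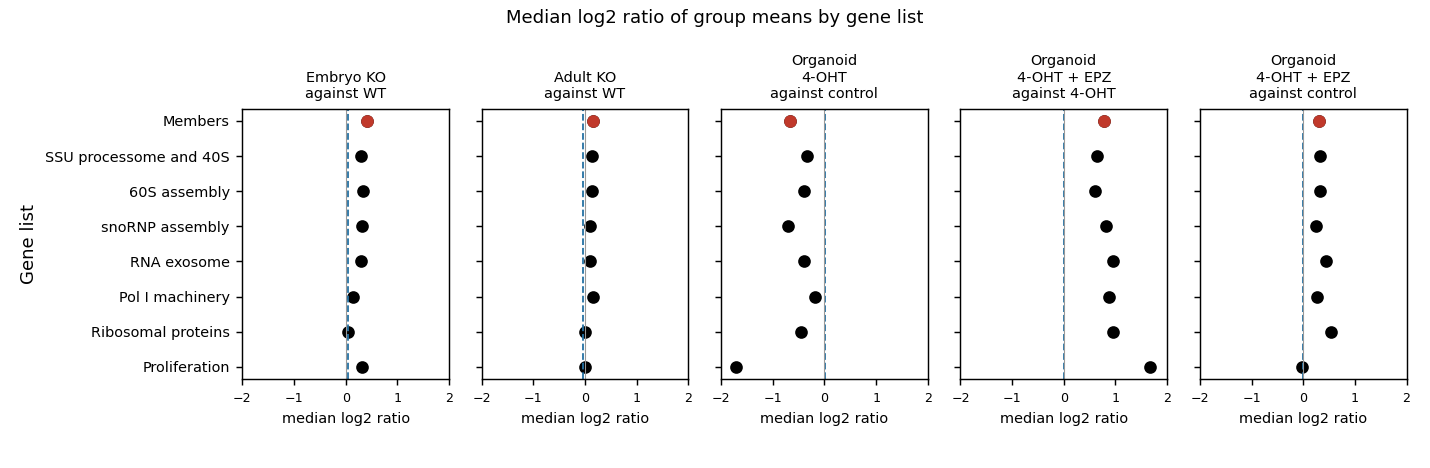
Median log2 ratio of group means for the 35 ribosome biogenesis genes (red, top row) and for 7 other gene lists (black) in 5 comparisons; the dashed line is the median of all genes tested. The 35 genes lie at -0.68 with 4-OHT and 0.79 with EPZ6438 relative to 4-OHT, and the proliferation list at -1.71 and 1.68.

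The comparison of EPZ6438 with 4-OHT alone had the most calls, and the sequences upstream of the genes at its ends are shown so that they can be set against each other. RefSeq promoters (GRCm38.p6, from 250 bases before to 50 after the annotated start) matched 30 of the 35 genes. Fbl, Npm1, Bop1, Rrp12 and Rrs1 had no entry in the table. The 250 bases before the start follow, 5′ to 3′, for the 2 genes with the highest ratios among those with a single promoter (Gar1 and Dkc1) and the 2 with the lowest (Rrp9 and Ppan). Capitals mark TATAAA, searched on both strands and therefore written TTTATA where it is on the other strand, and CACGTG, the palindromic E-box that Myc and Max can bind.
Gar1, chr3:129831397-129831646, minus strand: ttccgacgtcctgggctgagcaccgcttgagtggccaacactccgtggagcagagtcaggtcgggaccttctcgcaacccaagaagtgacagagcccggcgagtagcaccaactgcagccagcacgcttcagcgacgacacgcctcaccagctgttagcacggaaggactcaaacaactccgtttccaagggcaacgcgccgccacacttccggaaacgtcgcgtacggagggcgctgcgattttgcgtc
Dkc1, chrX:75095604-75095853, plus strand: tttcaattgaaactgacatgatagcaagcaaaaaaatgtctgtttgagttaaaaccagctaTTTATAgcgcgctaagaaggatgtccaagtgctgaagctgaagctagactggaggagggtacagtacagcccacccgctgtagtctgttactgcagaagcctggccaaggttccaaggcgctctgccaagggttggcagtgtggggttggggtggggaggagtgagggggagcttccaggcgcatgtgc
Rrp9, chr9:106477059-106477308, plus strand: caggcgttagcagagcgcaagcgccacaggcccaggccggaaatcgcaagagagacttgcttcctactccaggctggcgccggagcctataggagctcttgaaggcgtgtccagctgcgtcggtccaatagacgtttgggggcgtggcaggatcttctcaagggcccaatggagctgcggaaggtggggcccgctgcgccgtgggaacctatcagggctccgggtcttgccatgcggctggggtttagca
Ppan, chr9:20887925-20888174, plus strand: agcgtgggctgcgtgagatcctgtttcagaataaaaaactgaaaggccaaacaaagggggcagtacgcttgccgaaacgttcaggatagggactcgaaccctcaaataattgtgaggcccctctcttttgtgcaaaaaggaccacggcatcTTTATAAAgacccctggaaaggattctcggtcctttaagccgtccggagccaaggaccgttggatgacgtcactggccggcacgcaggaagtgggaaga

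No capitals appear for Gar1 or Rrp9, which says only that neither motif is in that window. Relative to the start, the TTTATA of Dkc1 begins at position -189, and the capitals of Ppan are 2 overlapping matches that begin at -99 and -97. TATAAA was in 3 of the 30 genes (Dkc1, Pes1 and Ppan), 9.09% of their promoters, and in 13.6% of the 32851 promoters in the table. CACGTG was in 7 of 33 member promoters (21.2%), some genes having several, and in 7.15% of all promoters. The G and C content had a median of 58.0% in members and 52.7% in all.

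The E-box of each of the 7 genes is shown with up to 12 bases on either side, shorter at the end of the window, because these genes hold the motif that the pathway is best known for. In 6 of them it lies within 50 bases after the start, and in Nop2 it begins at -60.
Pes1, chr11:3963965-3963994, plus strand: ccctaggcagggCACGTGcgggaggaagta
Wdr43, chr17:71616220-71616249, plus strand: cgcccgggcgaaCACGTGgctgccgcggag
Ltv1, chr10:13193092-13193121, minus strand: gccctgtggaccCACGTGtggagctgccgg
Tsr1, chr11:74898092-74898121, plus strand: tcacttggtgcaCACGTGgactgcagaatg
Nop2, chr6:125131811-125131840, plus strand: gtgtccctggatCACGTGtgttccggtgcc
Mybbp1a, chr11:72441355-72441376, plus strand: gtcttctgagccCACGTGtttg
Utp20, chr10:88826765-88826789, minus strand: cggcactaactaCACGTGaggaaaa

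These 7 genes spread over a wide range of ratios. With EPZ6438 relative to 4-OHT alone, Pes1 (log2 ratio 1.23), Wdr43 (1.01), Ltv1 (0.79) and Tsr1 (0.68) were higher by more than 1.5-fold. Nop2, an rRNA cytosine methyltransferase, had 0.45, Mybbp1a 0.44 and Utp20, a scaffold of the processome, 0.12. The letters are a description and no binding was measured.

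In embryonic intestine all 35 genes had a higher mean in Taf4 KO than in WT. The log2 ratios ran from 0.07 for Ltv1 to 0.67 for Rrp1b, with a median of 0.41 against 0.04 for all genes. Of these 7 exceeded 1.5-fold, against 9.12% of 16484 genes tested, and none was lower, against 16.0%. The 7 were Nop56, Nop58, Gar1, Polr1a, Wdr75, Ppan and Rrp1b. Rrp1b had means of 795 in Embryo WT and 1268 in Embryo KO. Nop58 had 500 and 796, and Nop56 had 1528 and 2416. The ratios of these genes were thus close to 1.6-fold. Polr1b (log2 ratio 0.58) lay just short of the limit, as did Nolc1 (0.57), Gnl3 (0.57) and Dkc1 (0.57). The smallest ratios were those of Ltv1 (448 and 470), Nhp2 (604 and 670) and Rrp9 (521 and 586).

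Scaling the group means to equal totals moved the median of all genes to 0.18 and that of the 35 genes to 0.55, with 17 genes above 1.5-fold against 16.3% of all genes, and raised the share of higher genes among all calls from 36.3% to 56.2%. Such a scaling shifts all ratios by about the same amount.

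Most other lists of the pathway had medians above 0 in embryos, with few genes past 1.5-fold. Of 43 processome and 40S genes 41 had a ratio above 0 (median 0.30), with Mphosph10 the only one past the limit (197 in WT and 323 in KO). The 41 genes of 60S assembly had a median of 0.34 and none past it. Ribosomal protein genes had a median of 0.05, near the 0.04 of all genes, and none past it. Of 6 snoRNA host genes tested 3 were above 0, and 1 was lower past the limit. In the Pol I machinery 2 of 11 genes were higher, against 9.12% of all genes, with a list median of 0.15. These were Polr1e (132 and 209) and Cd3eap (182 and 286), both subunits of the polymerase. In the Myc network 3 of 11 genes were lower in the KO and none higher, with a median of -0.16. The antagonists Mxd1 (408 and 108) and Mxi1 (252 and 101) were among the 3.

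Tissue composition markers differed between the embryo groups in ways that accompany these ratios. Fibroblast markers were higher in 5 of 6 cases (summed level 97296 in WT and 172195 in KO), smooth muscle markers in 2 of 6 (48757 and 70704), and the epithelial list was lower in 3 of 8 (57420 and 38867). Enterocyte markers were lower in 7 of 8 cases, with summed levels of 254302 and 72101. All 20 proliferation genes were above 0 with a median log2 ratio of 0.32. None of the markers of these lists was at 0 in either group. Their part in the ribosome biogenesis values was not tested.

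In adult ileum no gene passed 1.5-fold in either direction, against 7.24% higher and 13.3% lower of 16748 genes. Of the 35 genes 31 had a higher mean in the KO, with a median log2 ratio of 0.16 against -0.05 for all genes. With group means scaled to equal totals 2 genes were higher, against 10.8% of all genes, the median of the 35 genes was 0.33 and that of all genes 0.13. Nop10 had the highest ratio, with means of 379 in Adult WT and 535 in Adult KO, followed by Bop1 (420 and 573) and Rrp12 (80.0 and 106). The other genes were nearer to 0. Gnl3 (283 and 274), Gar1 (480 and 468), Nob1, the nuclease that cuts the end of mature 18S rRNA (387 and 380), and Ncl (809 and 807) had lower means in the KO. Npm1 was 4448 and 4487. Enterocyte markers were lower here too in 5 of 7 cases tested (summed level 167403 in WT and 68328 in KO), while the proliferation list had a median of 0.00 and fibroblast markers a median of -0.45. T cell markers were lower in 5 of 6 cases (2107 and 1162). In the Myc network 4 of 11 genes were lower and none higher. The antagonists Mxd1 (3070 in WT and 1204 in KO) and Mxi1 (371 and 184) were among the 4, as in embryos. Max (1951 and 965) and the Myc family member Mycn (30.2 and 8.47) were the others. Myc itself was 376 in WT and 319 in KO. The part of these markers and genes was not tested.

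For 30 of the 35 genes the log2 ratio was larger in embryos than in adults, with a median difference (adult minus embryo) of -0.30. Over 18033 genes the median difference was -0.05, and 53.9% were below 0. Gar1 (-0.68) and Ppan (-0.65) differed most, and Nop10 (0.26), Ltv1 (0.17) and Rrp12 (0.16) differed the other way. The difference between stages was not tested, and stage, tissue segment and the way Taf4 was deleted cannot be told apart.

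**Figure D3:**
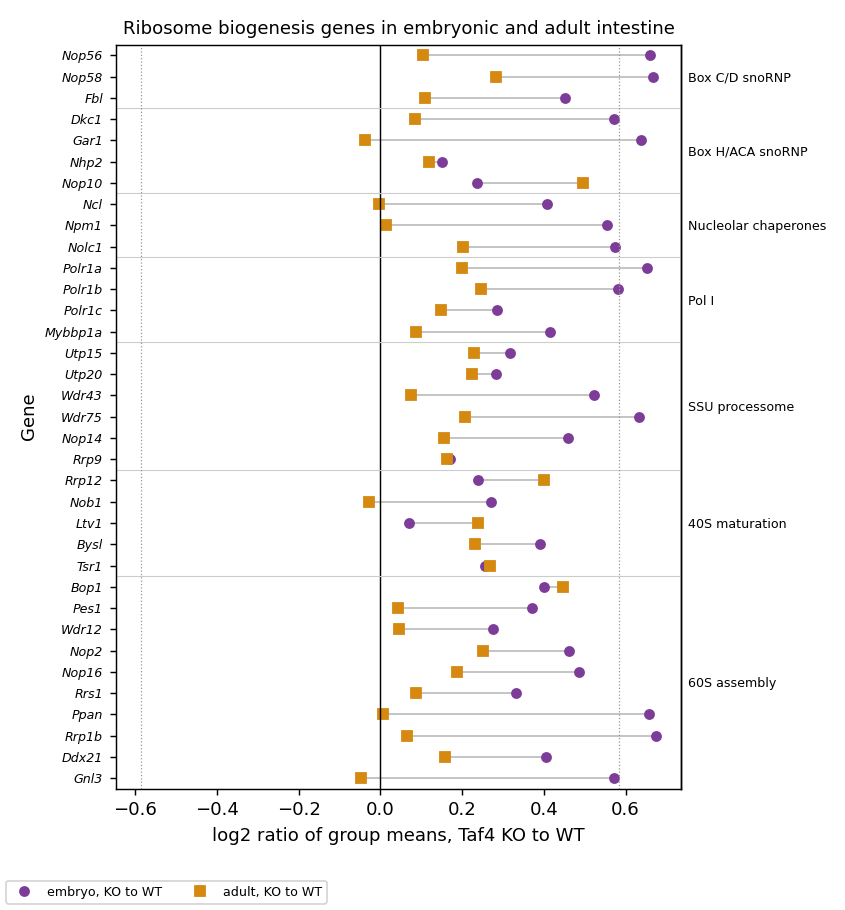
Log2 ratio of the Taf4 KO mean to the WT mean for each of the 35 genes in embryonic intestine (circles) and adult ileum (squares), ordered by role; dotted lines mark 1.5-fold and there is 1 deposited mean per group. All 35 circles lie above 0, 7 of them past 1.5-fold, while the squares lie between -0.05 and 0.50.

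Between stages, the WT adult ileum had lower means than the WT embryonic intestine for 31 of 35 genes, none past 1.5-fold (background 23.2% lower and 26.3% higher of 17381 genes), with a median log2 ratio of -0.29. In the KO groups 17 genes were lower in adults, against 25.8% of 17312 genes, with a median of -0.57, and none was higher, against 28.7%. Rrp1b (1268 in Embryo KO and 583 in Adult KO) and Gnl3 (558 and 274) differed by more than 2-fold, against 17.2% of all genes lower by that fold. Both counts depended on the scaling. Equal totals gave 22 genes lower in WT and 30 in KO, each against 36.1% of all genes, with the median of all genes moved to -0.33 and -0.28.

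In tumours the 35 genes had higher means in the Taf4 KO-Apc than in the Apc libraries, but none passed the test. The third Taf4 KO-Apc library is labelled with the mouse numbers of the other 2 joined. Its value lay between theirs for 63.4% of 9747 genes and for 24 of the 35 genes, against 16.4% to 39.6% of genes for each of the other libraries within its group. It may therefore hold RNA of the same animals. The counts of called and non-overlapping genes, the unadjusted count and the median are given with and without it. Single-gene values, their SD, SE and adjusted p, and the counts by role include it. Each of the other libraries carries a mouse number of its own in the labels. As the third Taf4 KO-Apc library may not be separate from the others of its group, p-values measure only the spread between these libraries. The reads behind each value, recovered from the FPKM steps, came to between 22848400 and 38959300 per library, and each of the 35 genes had at least 489 reads in every library.

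All 35 log2 fold changes were above 0, from 0.13 to 0.55 with a median of 0.30, on the log2(FPKM + 1) scale. The median of all 13794 genes tested was 0.14. At an adjusted p below 0.05 (limma, Benjamini-Hochberg over all genes) 0 of the 35 genes were called, against 0.384% of genes called higher and 0.536% lower. With a log2 fold change over 1 required as well, 0 of the 35 genes were called, against 0.138% higher and 0.478% lower of all genes. Unadjusted, 17 genes had p below 0.05 in limma. After rescaling by the median of ratios 4 did, with adjusted p of 0.131 and above in limma. The share of all genes at that unadjusted limit was not counted, so these counts have no background. Without the third Taf4 KO-Apc library 0 genes were called, with adjusted p of 0.306 and above in limma, 4 genes had unadjusted p below 0.05 and the median was 0.29. That count of 17 was 7 without the first Taf4 KO-Apc library, 11 without the first or the second Apc library, 12 without the third and 25 without the second Taf4 KO-Apc library.

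Polr1c had 23.8, 23.5 and 26.1 FPKM in the Apc libraries and 36.3, 34.1 and 36.7 in the Taf4 KO-Apc libraries (mm9 chr17:46380869-46385003). The groups did not overlap, and its log2 fold change of 0.53 ± 0.09 (SE) had an adjusted p of 0.0578 in limma, the lowest of the 35 genes. Polr1a had 9.53, 9.75 and 9.41 FPKM against 14.7, 12.6 and 12.6. Its groups did not overlap either, with a log2 fold change of 0.43 ± 0.10 and an adjusted p of 0.0859 in limma. Pes1 had 23.2, 28.9 and 29.2 FPKM in Apc and 43.2, 35.7 and 40.9 in Taf4 KO-Apc, the largest fold change (log2 0.55 ± 0.13, adjusted p 0.0924 in limma). Gar1 had 21.7, 31.8 and 30.2 against 42.6, 37.3 and 40.5 FPKM. For both genes the first Apc library was the lowest and the first Taf4 KO-Apc library the highest.

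Npm1 was the most abundant of the 35 genes per length, at 305 ± 4.26 FPKM (SD, n = 3) in Apc and 376 ± 23.1 in Taf4 KO-Apc tumours. Fbl followed with 81.9 ± 9.78 and 106 ± 7.18, and Nop56 with 78.3 ± 7.62 and 88.9 ± 8.60. Nop56 and Fbl do not differ beyond their spread in the Apc group. Wdr12 (6.08 ± 0.38 and 7.59 ± 1.13 FPKM), Utp20 (6.60 ± 0.55 and 7.32 ± 0.65) and Rrp12 (7.15 ± 0.70 and 7.92 ± 0.32) had the lowest levels in Apc tumours. Utp20 and Rrp12 also had the smallest fold changes, with log2 values of 0.13 ± 0.11 and 0.13 ± 0.10.

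For 25 of the 35 genes every Taf4 KO-Apc library was above every Apc library, against 26.9% of all genes, and for the other 10 the groups overlapped. None had every Taf4 KO-Apc library below every Apc library, against 8.5% of all genes. Without the third Taf4 KO-Apc library these counts were 26, against 28.9% of all genes, and 0, against 9.23%. Rescaling the libraries by the median of ratios brought the median of all genes to 0.01 and that of the 35 genes to 0.16, and left 11 non-overlapping genes against 14.8% of all genes. The first Apc library was the lowest of its group for 22 genes. Among Taf4 KO-Apc libraries the first was the highest for 28 genes and the second the lowest for 31. The summed FPKM of the 35 genes was 1175, 1335 and 1295 in Apc and 1704, 1447 and 1615 in Taf4 KO-Apc.

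**Figure D4:**
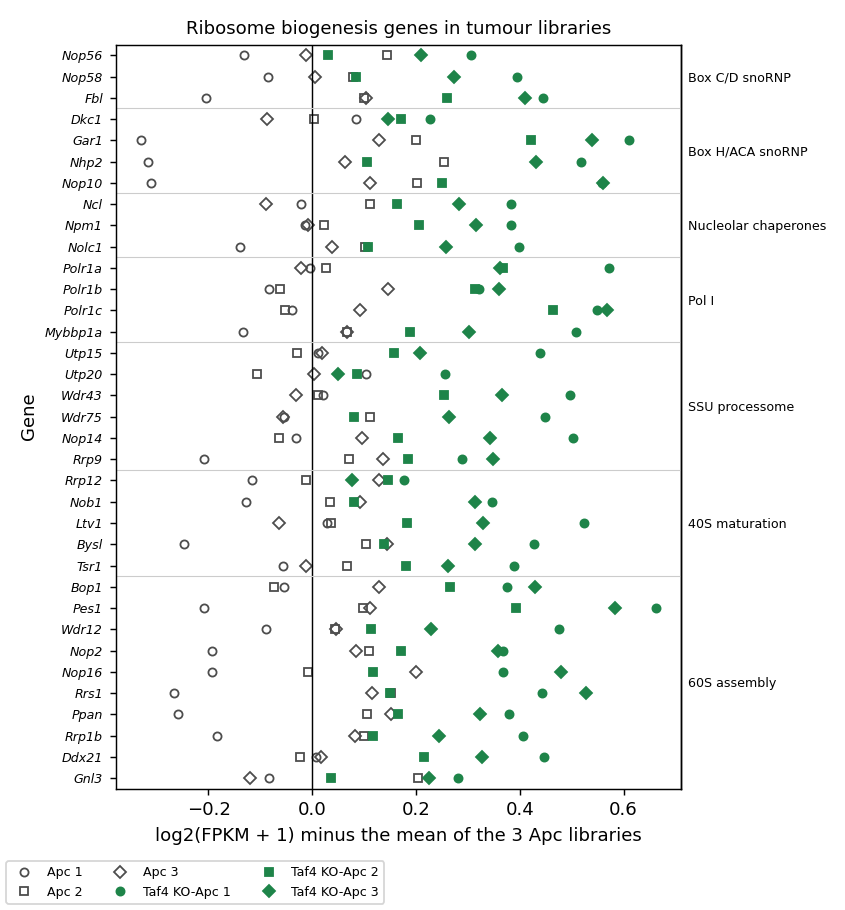
log2(FPKM + 1) of each library minus the mean of the 3 Apc libraries for the 35 genes, ordered by role; open symbols are Apc libraries and filled symbols Taf4 KO-Apc libraries, with the replicate given by shape. For 25 genes all filled symbols lie to the right of all open ones, and the filled circle (replicate 1) is farthest right for 28 genes.

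By role the tumour medians ran from 0.25 for box C/D to 0.40 for box H/ACA proteins, with 0.38 for polymerase I and 0.28 for chaperones. The groups did not overlap for all 4 polymerase I genes and all 3 chaperones, against 26.9% of all genes. In the other roles this held for 2 of 3 box C/D, 3 of 4 box H/ACA, 4 of 6 processome and 2 of 5 40S genes. It also held for 7 of the 10 genes of 60S assembly. After rescaling these counts were not made by role. The larger lists of the pathway had medians in the same range. None of 45 processome and 40S genes, 42 genes of 60S assembly or 50 ribosomal protein genes was called, with medians of 0.27, 0.30 and 0.29. The proliferation list had a median of 0.04. The Myc network had no called gene, with 6 of 11 genes above 0 and a median of 0.11. Within it Myc was 32.8 FPKM in Apc and 49.1 in Taf4 KO-Apc, with an adjusted p of 0.0982 in limma. Mxd1 was 114.6 and 41.7 FPKM, with an adjusted p of 0.0972 in limma.

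Markers of other cells also differed between the tumour groups. Summed smooth muscle markers ran from 160 to 477 FPKM in Apc and from 102 to 159 in Taf4 KO-Apc libraries, and no marker of that list was at 0. Summed T cell markers ran from 10.2 to 59.8 and from 7.16 to 8.59, and B and plasma cell markers from 156 to 808 and from 73.4 to 140, with 1 of 5 genes at 0 in 2 Taf4 KO-Apc libraries. Fibroblast markers overlapped (61.0 to 209 and 108 to 215), and endothelial markers ran from 25.6 to 37.5 and from 37.7 to 46.3. Cdh5 made up most of the endothelial sum in the Taf4 KO-Apc libraries (25.1 to 32.7 FPKM). Only 1 of the 5 endothelial genes had a log2 fold change above 0, and the list median was -0.07. Enterocyte markers ran from 4029 to 11976 and from 1425 to 6451. The part of these cells in the values of the ribosome biogenesis genes was not tested.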

How the data were processed

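Polyadenylated RNA of 27 mouse libraries was sequenced in 9 groups of 3. The authors, per the submitters' processing notes, used bcl2fastq 2.17.1.14, cutadapt 1.10, Bowtie2 2.2.8, STAR 2.5.3a, HTSeq and DESeq2, with mm9, and for tumours also mm10. The library kit differs between the labels (stranded) and the paper's methods. For organoids and intestine, the authors deposited group means of counts normalized by median of ratios (a signal scale), with their own log2 fold changes and adjusted p-values, which were not used. The tumour table deposited by the authors holds 1 FPKM value per gene and library. No further per-sample columns were left out.

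Group means were compared as log2 ratios with a pseudocount of 1, keeping genes with a mean of at least 10 in the higher group. Tumours were tested with limma 3.58.1 (R 4.3.3) on log2(FPKM + 1), for genes with a group mean of at least 1 FPKM, called at an adjusted p below 0.05; the procedure was tested on simulated data. Recovered reads were whole within 0.02 for 21419 genes.

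Members and lists were chosen with earlier results of these data known. All 35 genes are accounted for, and values are given at least for the 3 highest, lowest and nearest to no change in each comparison. From the other lists up to 4 genes with the largest ratios are named. Positions come from GENCODE M1 (mm9), promoters from RefSeq (GRCm38.p6). Alternatives were other folds, filters, pseudocounts, scalings, variance models, a replicate block and leaving out each tumour library.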

Additional observations from a re-analysis of the deposited data

How the results depend on the processing

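In the group-mean comparisons, a 2-fold limit in place of 1.5-fold gave 0 genes higher in embryos (2.16% of all genes) and 6 lower with 4-OHT (11.3%). It gave 3 higher and 0 lower with EPZ6438 against the control (12.4% and 13.3%), and 2 lower in adult against embryo KO (17.2%). Equal totals gave 17 higher (16.3% of all genes) and a median of 0.55 in embryos, and 2 higher (10.8%) and 0.33 in adults. They gave a median of -0.80 with 4-OHT, 1 lower with EPZ6438 against 4-OHT (31.3%), and a median of 0.10 with EPZ6438 against the control. For adult against embryo they gave 22 lower and -0.63 in WT, and 30 lower and -0.88 in the KO (36.1% each). Centring on the median of all genes gave 1 lower in adult against embryo WT (23.7% of all genes). Filters and the pseudocount of 10 moved no count of members by over 1.5 times. No paired analysis was possible because these tables hold means. In tumours, 1 gene was called higher with no filter, with at least 5 FPKM and with a mean-variance trend in limma (adjusted p 0.0438, 0.0426 and 0.0441). Over all genes these settings called 247 of 21419, 189 of 10166 and 170 of 13794 higher, against 53 of 13794 in the main setting. Rescaling by the median of ratios gave a median of 0.16 and 11 non-overlapping genes, against 14.8% of all genes. With the replicate number as a block 0 genes were called; the same-number correlations were -0.17, -0.20 and -0.04, so the numbers were not taken as pairs. Leaving out 1 library gave 0 calls, medians of 0.24 to 0.36 and 25 to 33 non-overlapping genes, against 28.9% to 42.3% of all genes. Absence of spread limits organoids and intestine, and 3 libraries a group limit tumours.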
